A study of Mus musculus with 12 samples.

Results

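The 33 genes described here encode subunits of the receptors for glutamate and GABA, the main excitatory and inhibitory transmitters of the brain. They were chosen by name and each matched 1 of the 20347 gene entries of the count table: 4 AMPA, 6 NMDA, 5 kainate and 1 delta glutamate receptor subunits, 6 metabotropic glutamate receptors, 9 GABA-A subunits and the 2 GABA-B subunits. The other 14 subunit genes of these families that were looked up are given only as a group for comparison.

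RNA was sequenced in bulk from brain hemispheres of 12-week-old male mice, wild-type (WT) or deficient in Lama4 (Lama4-/-), which encodes a laminin chain found in the basement membranes of blood vessels. In every mouse of both genotypes a filament closed the left middle cerebral artery for 60 min, and the brain was taken after 24 h of reperfusion. The ipsilateral hemisphere carried the stroke and the contralateral one served as its control, so the control tissue came from operated mice. The 4 groups were WT contralateral, WT ipsilateral, Lama4-/- contralateral and Lama4-/- ipsilateral, with 3 libraries each, and each library was a pool of 2 mice. The mice were perfused with PBS, and the olfactory bulb and cerebellum were cut away before the hemisphere was homogenized whole, so the injured area was not separated from the tissue around it. The labels name no promoter or cell type for the Lama4 deletion.

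AMPA, NMDA and kainate receptors are glutamate-gated cation channels built of 4 subunits. AMPA receptors carry most fast excitation, and NMDA receptors admit calcium and are a classical route of excitotoxic injury in stroke. Metabotropic glutamate receptors and GABA-B receptors signal through G proteins. GABA-A receptors are chloride channels, some at synapses and others outside them, where they hold a tonic inhibition. Striatal medium spiny neurons, which lie in the core territory of the middle cerebral artery, express several of these subunits at high levels.

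Library totals ran from 27537167 to 44113824 counts. Lama4 itself was at 9.18 ± 1.68 CPM (counts per 1000000 counts, TMM-scaled over the 12 libraries; SD, n = 3) in WT contralateral and 14.7 ± 0.167 in WT ipsilateral libraries, against 0.286 ± 0.0705 and 0.532 ± 0.291 in the corresponding Lama4-/- groups. The members were measured at between 102 and 38372 counts per library. Nothing states whether pools shared litters or surgery days, so p-values measure the spread between these pools. The cerebellar markers Gabra6 and Pcp2 reached at most 0.603 and 0.658 CPM in any library. They were the low end of 8 markers of the removed olfactory bulb and cerebellum. These 8 summed to 64.4 to 79.1 CPM in WT contralateral and 49.3 to 59.0 CPM in WT ipsilateral libraries. In the corresponding Lama4-/- groups the sums were 69.4 to 82.3 and 46.4 to 74.3 CPM. Neuronal markers were abundant: the 12 pan-neuronal genes summed to between 6962 and 9153 CPM per library.

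After stroke, the receptor genes as a group lay lower in the injured hemisphere in both genotypes. In WT mice 30 of the 33 had a negative log2 fold change (ipsilateral over contralateral), with a median of -0.26 and a range of -0.63 to 0.04, beside a median of 0.01 over all 15351 genes tested. In Lama4-/- mice 28 of 33 were negative, with a median of -0.23 and a range of -0.69 to 0.25, beside -0.01 over all genes. By edgeR's quasi-likelihood test with Benjamini-Hochberg adjustment over all genes (a call is an adjusted p below 0.05), 8 of the 33 fell in WT, or 24.2%, where 5.47% of all genes were called lower. In Lama4-/-, 9 of the 33 fell, or 27.3%, where 10.5% of all genes were called lower. No member was called higher in either genotype. In bulk tissue, fewer cells of a type and less RNA per cell cannot be told apart.

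7 members were called lower in both genotypes: Gria4, Grin1, Grik2, Grm5, Gabra4, Gabrg1 and Gabrd. Gria2 was called in WT, and Grik5 and Grm8 in Lama4-/-. The other 23 passed in neither. With a replicate block, which compares same-numbered hemispheres of a genotype on the reading that they come from 1 pool of mice, 13 members were called lower in WT (39.4%, beside 10.3% of all genes) and 16 in Lama4-/- (48.5%, beside 15.7%). The block added Grin3a, Grm3, Grm4, Grm7 and Grm8 in WT. In Lama4-/- it added Gria2, Grin2c, Grik1, Grm3, Grm4, Grm7 and Gabra5. With the block, 12 members were called in both genotypes and 16 in neither. Calls without the block depended on the scaling: with library totals in place of TMM, edgeR's adjusted p was 0.0732 for Gria2, 0.0817 for Grin1 and 0.0617 for Gabrd in WT, and 0.177 for Gria4, 0.108 for Grik2, 0.0697 for Grm5 and 0.0898 for Grm8 in Lama4-/-. Fitted on the 6 Lama4-/- libraries alone, the same 4 genes had edgeR adjusted p of 0.0932, 0.0535, 0.075 and 0.0635 in Lama4-/-. In WT, 18 members had all 3 ipsilateral libraries below all 3 contralateral ones (54.5%, beside 17.5% of all genes). In Lama4-/-, 10 did (30.3%, beside 18.1%).

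**Figure D1:**
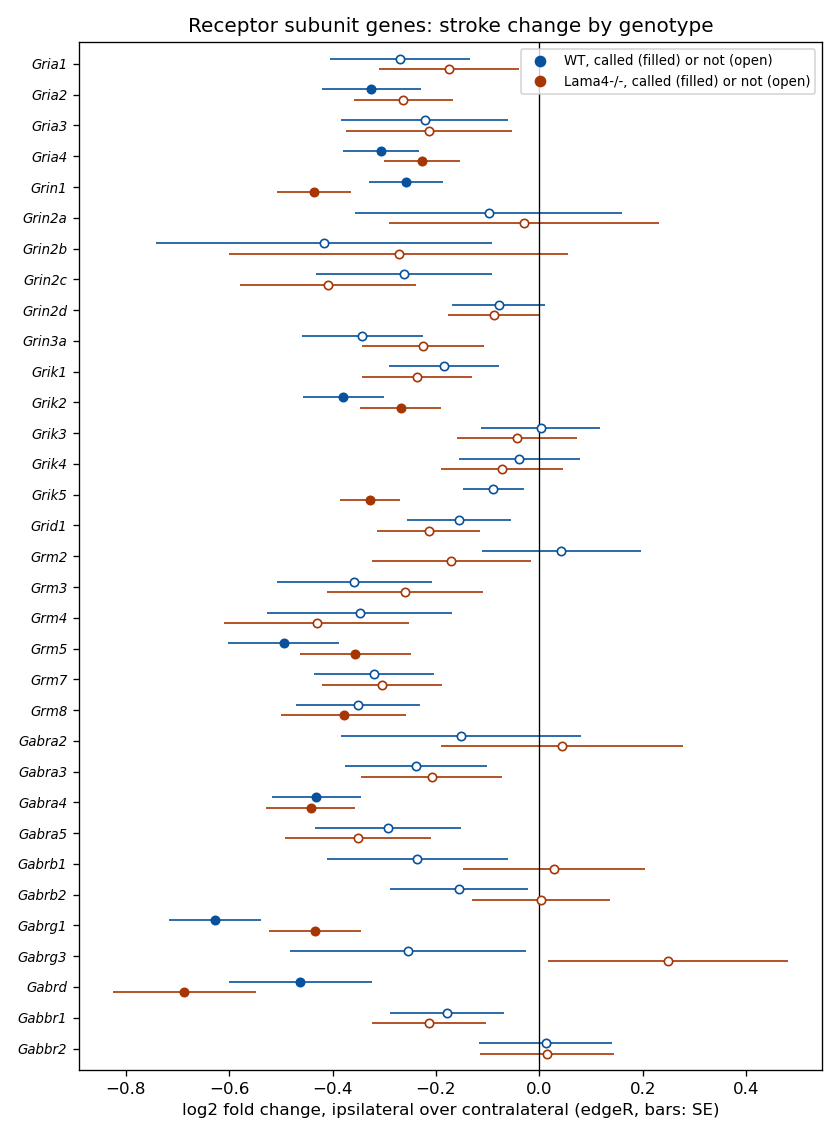
Log2 fold change of each of the 33 genes, ipsilateral over contralateral, in WT (blue) and Lama4-/- (brown) mice; points are edgeR estimates, bars their SE, and filled points an adjusted p below 0.05. The points lie left of 0 for 30 genes in WT and 28 in Lama4-/-, and all filled points are on the left.

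A codon in the pore loop of the AMPA subunits matters for calcium. The glutamine codon of the pore loop, known as the Q/R site, is recoded to arginine by RNA editing in the Gria2 transcript, which makes receptors that hold the edited subunit nearly impermeable to calcium. The coding strand around that codon is shown for the 4 genes because read counts per gene cannot tell edited from unedited Gria2. Each line holds the codon in capitals with 15 bases on either side, read from the GENCODE transcripts of build GRCm38 (mm10).
Gria1: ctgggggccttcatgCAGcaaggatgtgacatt
Gria2: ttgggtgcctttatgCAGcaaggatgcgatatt
Gria3: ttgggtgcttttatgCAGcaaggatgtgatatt
Gria4: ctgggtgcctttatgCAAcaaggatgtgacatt
The genome encodes glutamine at this position in all 4. The codon is CAG in Gria1, Gria2 and Gria3 and CAA in Gria4. The stretches lie on chr11:57243079-57243111 (plus strand), chr3:80706896-80706928 (minus), chrX:41610250-41610282 (plus) and chr9:4464122-4464154 (minus), within exons 11, 11, 11 and 12 of the transcripts used. Gria2 and Gria3 are identical at 31 of the 33 bases, and Gria1 and Gria4 at 30.

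Of the AMPA genes, Gria2 and Gria4 fell in WT and Gria4 in Lama4-/-. Gria2 (minus strand of chr3:80681450-80802835) stood at 932, 853 and 896 CPM in WT contralateral libraries 1 to 3 and at 758, 659 and 722 CPM in the ipsilateral ones. In Lama4-/- it stood at 846, 701 and 866 CPM contralaterally and 600, 658 and 748 CPM ipsilaterally. The WT groups did not overlap, while the Lama4-/- groups did, because contralateral library 2 was lower than ipsilateral library 3. The log2 change was -0.33 ± 0.10 in WT (edgeR, SE; adjusted p = 0.0357) and -0.26 ± 0.10 in Lama4-/- (edgeR adjusted p = 0.0638, and 0.018 with the pool block). The WT call for Gria2 was lost without contralateral library 1, 2 or 3 (edgeR adjusted p = 0.105, 0.0583 and 0.0961) and without ipsilateral library 2 or 3 (adjusted p = 0.131 and 0.0789).

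Gria4, whose product forms fast-gating AMPA receptors in several interneurons, read 156, 137 and 146 CPM contralaterally and 122, 111 and 121 CPM ipsilaterally in WT. The Lama4-/- libraries read 139, 132 and 145 CPM against 111, 115 and 128 CPM. Neither pair of groups overlapped. Gria4 changed by -0.31 ± 0.07 (log2) in WT and -0.23 ± 0.07 in Lama4-/- (edgeR adjusted p = 0.0133 and 0.0395). In WT the call was lost without contralateral library 1 or ipsilateral library 2 (edgeR adjusted p = 0.059 and 0.0601). In Lama4-/- it was lost without contralateral library 1 or 3 or ipsilateral library 1 or 2 (edgeR adjusted p = 0.0721, 0.13, 0.147 and 0.104). Gria1 and Gria3, the other AMPA subunits, passed in neither genotype, with log2 changes of -0.27 ± 0.14 and -0.22 ± 0.16 in WT and -0.18 ± 0.14 and -0.21 ± 0.16 in Lama4-/-.

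Among the NMDA subunits, Grin1 fell in both genotypes. Its product, GluN1, is the subunit that every NMDA receptor needs. Grin1 (minus strand of chr2:25291181-25319187) stood at 366, 425 and 383 CPM in WT contralateral and 315, 345 and 321 CPM in WT ipsilateral libraries. In Lama4-/- the values were 419, 453 and 417 CPM contralaterally and 306, 338 and 307 CPM ipsilaterally. The hemispheres did not overlap in either genotype. The log2 change was -0.26 ± 0.07 in WT (edgeR adjusted p = 0.0264) and -0.44 ± 0.07 in Lama4-/- (edgeR adjusted p = 0.000817). The Lama4-/- call held when each of its 6 libraries was left out in turn. The WT call was lost without contralateral library 2 or 3 or ipsilateral library 1 or 3 (edgeR adjusted p = 0.117, 0.0613, 0.0951 and 0.0836). The annotation also places an antisense gene, Grin1os, over Grin1, and reads from the opposite strands cannot be told apart without a stated strand setting. The same limit holds for Grin2b, Grin2c, Grin2d, Grm2, Grm7 and Gabra5, whose exons also overlap genes on the opposite strand.

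The GluN2 subunits set the channel's kinetics, and none of their genes passed in the fit without a block. Grin2b, prominent in early development and in extrasynaptic receptors, read 34.0, 24.8 and 33.1 CPM in WT contralateral and 33.7, 17.0 and 18.1 CPM in WT ipsilateral libraries, with a log2 change of -0.42 ± 0.33 that became -0.81 without ipsilateral library 1. Ipsilateral library 1 was at the contralateral level and the other two were not, and the SE of Grin2b was the largest of the 33 in both genotypes. In Lama4-/- Grin2b was at -0.27 ± 0.33, with changes of -0.56, 0.54 and -0.58 in pools 1, 2 and 3. Grin2a, the predominant GluN2 subunit of the adult forebrain, had log2 changes of -0.10 ± 0.26 and -0.03 ± 0.26 in WT and Lama4-/-, in that order. Grin2c changed by -0.26 ± 0.17 and -0.41 ± 0.17, the latter with an edgeR adjusted p of 0.104 that became 0.0156 with the pool block. Grin2d changed by -0.08 ± 0.09 and -0.09 ± 0.09. Grin3a, which encodes a subunit that lowers calcium permeability, changed by -0.34 ± 0.12 in WT (edgeR adjusted p = 0.0644, and 0.044 with the block) and by -0.22 ± 0.12 in Lama4-/-.

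The kainate subunits divided. Grik2, the gene of the channel-forming GluK2, fell in both genotypes, from 71.4, 67.7 and 76.7 CPM to 58.0, 49.98 and 57.9 CPM in WT. The Lama4-/- levels went from 63.7, 67.5 and 70.8 CPM to 52.7, 55.1 and 59.5 CPM. All ipsilateral values lay below all contralateral ones in both. The log2 change of Grik2 (minus strand of chr10:49094833-49788766) was -0.38 ± 0.08 in WT and -0.27 ± 0.08 in Lama4-/- (edgeR adjusted p = 0.00539 and 0.0241). The WT call held when any 1 library was left out. The Lama4-/- call was lost without contralateral library 2 or 3 or ipsilateral library 1 or 2 (edgeR adjusted p = 0.0532, 0.0898, 0.0969 and 0.0632).

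Grik5 encodes GluK5, a high-affinity subunit that works only together with GluK1 to GluK3. It read 238, 263 and 243 CPM in WT contralateral and 229, 234 and 236 CPM in WT ipsilateral libraries. Its Lama4-/- values were 290, 292 and 277 CPM contralaterally and 217, 230 and 235 CPM ipsilaterally. The Lama4-/- contralateral libraries were the highest of the 4 groups, above every WT library. Grik5 changed by -0.09 ± 0.06 (log2) in WT (edgeR adjusted p = 0.344) and -0.33 ± 0.06 in Lama4-/- (edgeR adjusted p = 0.00152), where the call held when any 1 library was left out. The difference between these changes, the interaction, was -0.24 ± 0.08 with an unadjusted p of 0.0124 and an edgeR adjusted p of 1.00, so the difference did not pass. Grik1 was at -0.18 ± 0.11 in WT and -0.24 ± 0.11 in Lama4-/- (edgeR adjusted p = 0.129, and 0.0424 with the block). Grik3 and Grik4 lay close to 0, at 0.00 ± 0.12 and -0.04 ± 0.12 in WT and -0.04 ± 0.12 and -0.07 ± 0.12 in Lama4-/-. Grid1, the delta subunit that acts as a synaptic organizer, was at -0.16 ± 0.10 and -0.21 ± 0.10 and passed in neither.

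The metabotropic glutamate receptors had the lowest family medians among the glutamate receptors, -0.35 in WT and -0.33 in Lama4-/-. Grm5 encodes the Gq-coupled mGluR5, which is abundant in striatum and signals through calcium release. Grm5 (plus strand of chr7:87584168-88134907) stood at 291, 286 and 300.2 CPM in WT contralateral and 217, 189 and 216 CPM in WT ipsilateral libraries, with a wide gap between the groups. Grm5 in Lama4-/- stood at 255, 227 and 295 CPM against 176, 198 and 231 CPM, and the groups overlapped. The log2 change was -0.49 ± 0.11 in WT and -0.36 ± 0.11 in Lama4-/- (edgeR adjusted p = 0.00721 and 0.0279). The WT call held when any 1 library was left out. The Lama4-/- call was lost without contralateral library 3 or ipsilateral library 1 or 2 (edgeR adjusted p = 0.123, 0.124 and 0.0752).

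Grm8, a Gi-coupled presynaptic receptor of group III, was called in Lama4-/- without the block and in both genotypes with it. It read 17.6, 22.3 and 21.9 CPM contralaterally and 14.3, 15.4 and 17.8 CPM ipsilaterally there, with 1 contralateral library inside the ipsilateral range. The log2 change was -0.38 ± 0.12 (edgeR adjusted p = 0.0357), and the call was lost without contralateral library 2 or 3 or ipsilateral library 1 or 2 (adjusted p = 0.123, 0.111, 0.143 and 0.0893). In WT, Grm8 was at -0.35 ± 0.12 (edgeR adjusted p = 0.0637, and 0.0246 with the block). Grm3, Grm4 and Grm7 passed in neither genotype without the block and in both with it. Their log2 changes were -0.36 ± 0.15, -0.35 ± 0.18 and -0.32 ± 0.12 in WT and -0.26 ± 0.15, -0.43 ± 0.18 and -0.30 ± 0.12 in Lama4-/-. Their edgeR adjusted p with the block was 0.00497, 0.0122 and 0.00813 in WT and 0.0145, 0.00243 and 0.00612 in Lama4-/-. Grm2, a group II autoreceptor, passed in neither fit, with 0.04 ± 0.15 in WT and -0.17 ± 0.15 in Lama4-/-.

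**Figure D2:**
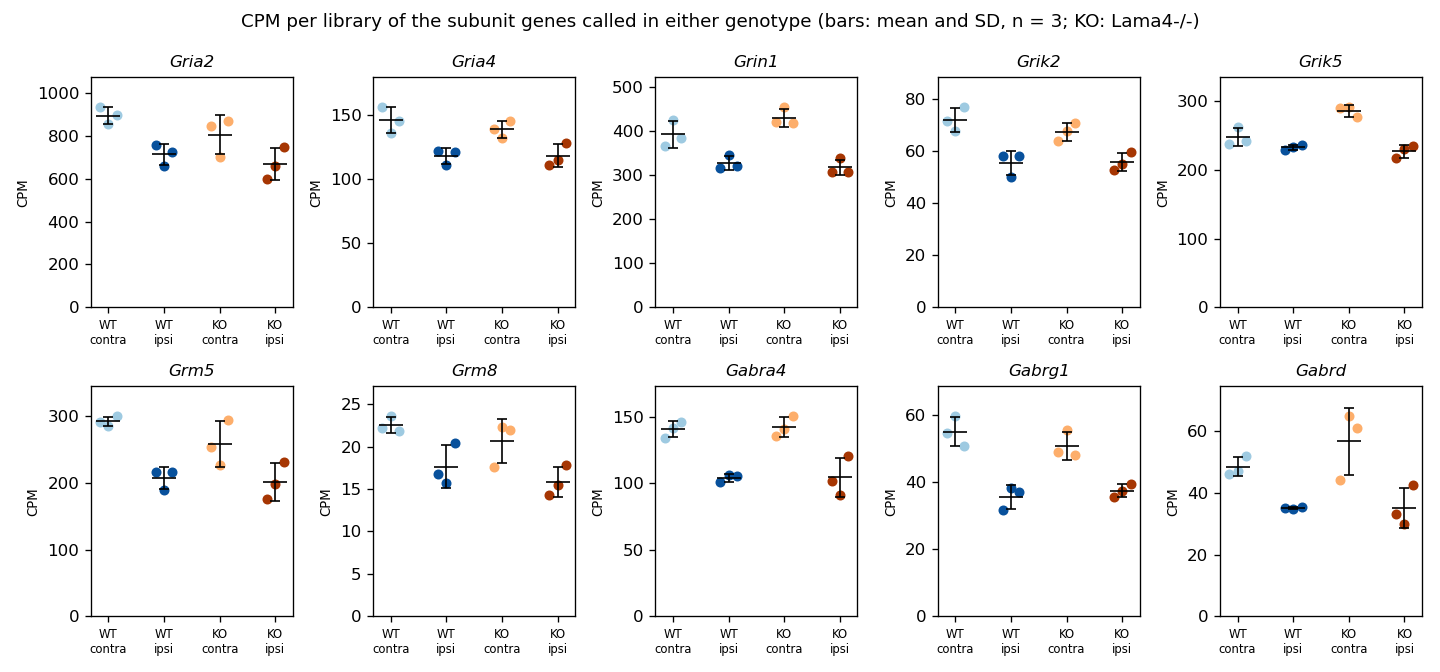
CPM in each library of the 10 genes called in either genotype, by group (points: libraries; bars: mean and SD, n = 3; vertical axes start at 0; KO is Lama4-/-). Gabrg1 and Gabra4 show a clear gap between hemispheres in both genotypes, whereas Gria2, Grm5 and Grm8 overlap in Lama4-/-.

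The GABA-A genes held the members with the lowest log2 changes and several that did not pass. Gabrg1, which encodes a gamma subunit, had the lowest log2 change of the 33 in WT. It read 54.7, 59.6 and 50.8 CPM contralaterally and 31.6, 38.2 and 36.9 CPM ipsilaterally in WT. The Lama4-/- values were 48.9, 55.4 and 48.0 CPM against 35.5, 37.4 and 39.5 CPM. The hemispheres were well apart in both genotypes. The log2 change was -0.63 ± 0.09 in WT (edgeR adjusted p = 0.000438) and -0.43 ± 0.09 in Lama4-/- (edgeR adjusted p = 0.00361), and both calls held when any 1 library was left out.

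Gabra4 and Gabrd encode the alpha 4 and delta subunits, which come together in extrasynaptic receptors of striatum, thalamus and dentate gyrus. Gabra4 read 134, 142 and 147 CPM in WT contralateral and 101, 107 and 106 CPM in WT ipsilateral libraries. Gabra4 in Lama4-/- was at 136, 141 and 151 CPM against 102, 91.6 and 120.4 CPM. Its log2 change was -0.43 ± 0.09 and -0.44 ± 0.09 (edgeR adjusted p = 0.00437 in WT and 0.00258 in Lama4-/-), with no overlap and with both calls kept when any 1 library was left out. Gabrd (minus strand of chr4:155384980-155398112) read 46.2, 47.1 and 52.0 CPM in WT contralateral and 35.2, 34.8 and 35.5 CPM in WT ipsilateral libraries. In Lama4-/- it read 44.3, 64.8 and 60.9 CPM against 32.98, 30.03 and 42.4 CPM, again without overlap. The log2 change of Gabrd was -0.46 ± 0.14 in WT (edgeR adjusted p = 0.0395) and -0.69 ± 0.14 in Lama4-/- (edgeR adjusted p = 0.00359), the lowest of the 33 there. The Lama4-/- call held when any 1 library was left out, but not without both libraries of pool 2 (-0.48 ± 0.15, edgeR adjusted p = 0.0523); within Lama4-/- pools 1, 2 and 3 Gabrd changed by -0.43, -1.11 and -0.52. The WT call was lost without contralateral library 1, 2 or 3 (edgeR adjusted p = 0.0663, 0.0801 and 0.137) or ipsilateral library 1, 2 or 3 (edgeR adjusted p = 0.0966, 0.1 and 0.0896), although the log2 change stayed between -0.50 and -0.41.

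The other 6 GABA-A genes did not pass without the block. Gabra5, the alpha subunit of hippocampal tonic receptors, was at -0.29 ± 0.14 in WT and -0.35 ± 0.14 in Lama4-/- (edgeR adjusted p = 0.0925, and 0.032 with the block). Gabra2, Gabra3, Gabrb1 and Gabrb2 had log2 changes of -0.15 ± 0.23, -0.24 ± 0.14, -0.24 ± 0.18 and -0.16 ± 0.13 in WT and of 0.04 ± 0.23, -0.21 ± 0.14, 0.03 ± 0.18 and 0.00 ± 0.13 in Lama4-/-. Gabrg3, the member with the fewest counts, was at -0.25 ± 0.23 in WT and 0.25 ± 0.23 in Lama4-/-. The GABA-B genes, which encode the ligand-binding and the signalling partner of an obligate dimer, passed in neither genotype: Gabbr1 was at -0.18 ± 0.11 and -0.21 ± 0.11, and Gabbr2 at 0.01 ± 0.13 and 0.02 ± 0.13.

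Gabrg1, Gabra2, Gabra4 and Gabrb1 lie in this order in a cluster on chromosome 5. The first 3 lie on the minus strand, at chr5:70751047-70842617, chr5:70957597-71095849 and chr5:71569749-71658308, and Gabrb1 lies on the plus strand at chr5:71658113-72149037. Gabrg1 and Gabra4 fell in both genotypes, while Gabra2 and Gabrb1 did not pass in either. The 5' ends of Gabra4 and Gabrb1 overlap head to head by 196 bases, and reads in that stretch cannot be assigned to a strand here. The start regions of this head-to-head pair are shown because it is annotated as overlapping at its 5' ends and differs in its calls. The start region of Grin1 is shown because, among the members with a window, it alone held CACGTG, a form of the E box. Each is RefSeq's window of 250 bases before to 50 after a start, in the direction of the gene, on GRCm38.p6, and capitals mark CACGTG. RefSeq starts Gabrb1 upstream of the GENCODE start given above, so the window shown for Gabrb1 ends before the overlap begins.
Gabra4: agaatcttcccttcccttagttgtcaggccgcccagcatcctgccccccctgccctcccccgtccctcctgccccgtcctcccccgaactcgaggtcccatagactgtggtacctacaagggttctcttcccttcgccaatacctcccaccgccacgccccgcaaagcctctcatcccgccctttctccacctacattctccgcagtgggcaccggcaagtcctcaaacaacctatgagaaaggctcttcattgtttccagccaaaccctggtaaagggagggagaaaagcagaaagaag
Gabrb1: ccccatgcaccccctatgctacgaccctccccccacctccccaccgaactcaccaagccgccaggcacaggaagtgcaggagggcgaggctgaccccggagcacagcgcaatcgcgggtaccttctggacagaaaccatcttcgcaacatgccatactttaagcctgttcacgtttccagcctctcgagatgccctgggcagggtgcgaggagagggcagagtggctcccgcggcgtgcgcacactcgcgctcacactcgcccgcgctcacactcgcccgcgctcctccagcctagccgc
Grin1: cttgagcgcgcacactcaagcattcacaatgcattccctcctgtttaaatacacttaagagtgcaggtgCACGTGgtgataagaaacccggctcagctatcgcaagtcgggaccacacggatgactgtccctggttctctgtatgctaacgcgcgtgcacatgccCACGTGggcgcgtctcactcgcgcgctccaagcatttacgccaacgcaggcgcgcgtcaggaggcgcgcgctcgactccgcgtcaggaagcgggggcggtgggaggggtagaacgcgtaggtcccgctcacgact
These windows are chr5:71658259-71658558 (minus), chr5:71657671-71657970 (plus) and chr2:25319138-25319437 (minus), with GC contents of 58.7%, 66.0% and 60.7%. RefSeq windows were found for 23 of the 33 members, 30 windows in all. Searched on both strands, the cAMP response element TGACGTCA and the AP-1 letters TGACTCA and TGAGTCA occurred in none of the 30, beside 1.79% and 5.2% of all 32851 windows. The E box CACGTG occurred in 1 of the 30 (Grin1), beside 7.15% of all windows. The core letters TTCAGCACC of the site bound by REST, a repressor of neuronal genes, occurred in 1 of the 30 (Grm2), beside 0.371% of all windows. A match is a run of letters, and the lack of one says only that these letters are not in this window.

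Hemispheres of the same number and genotype were read as 1 pool of mice, which the labels do not state. In WT pools 1, 2 and 3, 32, 27 and 31 of the 33 genes were lower ipsilaterally, with medians of -0.30, -0.14 and -0.26. In Lama4-/- pools 1, 2 and 3 the numbers were 33, 17 and 27, with medians of -0.46, -0.08 and -0.17. The Lama4-/- pools therefore differed more among themselves than the WT pools. Lama4-/- ipsilateral library 1 stood out on the low side, with a members' median log2 difference of -0.31 from the other 2 libraries of its group. Leaving it out moved the members' median for the Lama4-/- stroke comparison from -0.23 to -0.12 and the number called from 9 to 5. That library also had the lowest summed pan-neuronal level of the 12, 6962 CPM, and the part of this in the result was not tested. The number called was also 5 without Lama4-/- contralateral library 3 or ipsilateral library 2, and 13 without ipsilateral library 3. In WT it was 5 without contralateral library 1, 2 or 3 or without ipsilateral library 2, beside 8 with all libraries. The share of all genes called with a library left out is not given here.

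**Figure D3:**
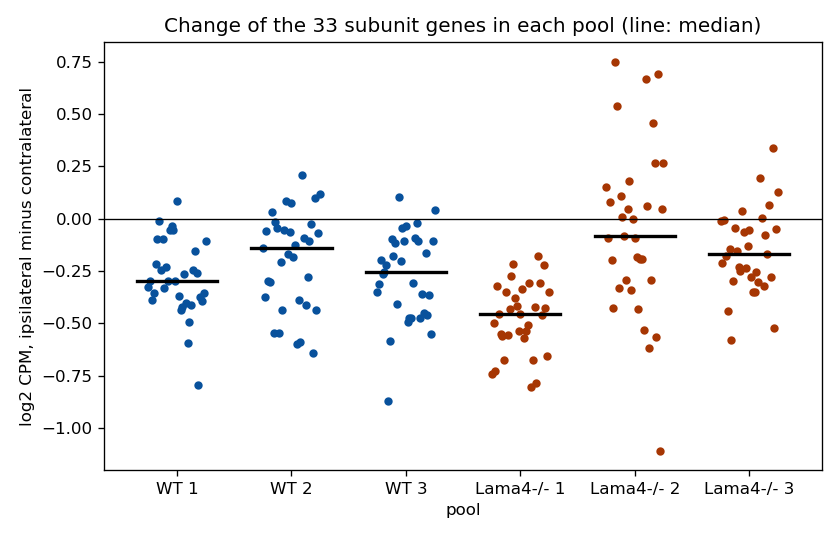
Change of each of the 33 genes within each pool (log2 CPM, ipsilateral minus contralateral; points are genes, spread sideways for visibility, and lines are medians). All 33 points lie below 0 in Lama4-/- pool 1, whereas 17 of 33 do in Lama4-/- pool 2.

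The rest of the transmission machinery was read in the same fits. Of 14 other subunit genes, 10 were tested, with a median log2 change of -0.21 in WT and -0.22 in Lama4-/-. Grm6, Gabra6, Gabrp, Gabrr1 and Gabrr3 were at most 0.603 CPM in any library. Of 29 auxiliary and scaffold genes of glutamate receptors, 6 fell in WT and 9 in Lama4-/- (12 and 16 with the pool block). Among them were Cacng4, an AMPA receptor auxiliary subunit, at -0.47 ± 0.14 and -0.61 ± 0.14, and Shisa7, at -0.43 ± 0.09 and -0.40 ± 0.09. Shisa9 was among the 3 called genes with the largest changes in WT (-0.39 ± 0.12). Cnih2, which helps to export AMPA receptors, was among them in Lama4-/- (-0.52 ± 0.11).

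Of 10 auxiliary and scaffold genes of GABA receptors, 3 fell in WT and 4 in Lama4-/- (2 and 5 with the block). Kctd8, a GABA-B auxiliary subunit, was at -0.40 ± 0.12 and -0.48 ± 0.12. Gphn, the gephyrin gene, was among the 3 called genes with the largest changes in WT (-0.22 ± 0.06). Nlgn2 was among them in Lama4-/- (-0.30 ± 0.06). Of 14 genes of transmitter synthesis and transport, 7 fell in WT and 6 in Lama4-/-. This list shares genes with the interneuron, cortical excitatory, thalamic and astrocyte marker lists below, so their counts are not independent. Slc1a2, the main astrocytic glutamate transporter, went from 2243 ± 145 to 1679 ± 93.3 CPM in WT (SD, n = 3; edgeR adjusted p = 0.00879), and the vesicular transporter gene Slc17a7 went from 1300.0 ± 37.3 to 1010.0 ± 84.3 CPM in Lama4-/- (edgeR adjusted p = 0.00236). None of these 4 lists held a gene called higher, and none held a gene called in the interaction. A gene named here for a single genotype may also have been called in the other.

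The marker lists of neurons and astrocytes had median log2 changes below 0 in both genotypes, to differing extents. Of all genes, 5.47% were called lower in WT and 10.5% in Lama4-/-. All 12 markers of striatal medium spiny neurons fell in both genotypes, with medians of -0.98 in WT and -1.12 in Lama4-/-. Their summed level ran from 1426 to 1624 CPM in WT contralateral and from 697 to 873 CPM in WT ipsilateral libraries, and from 1437 to 1813 and 610 to 847 CPM in the Lama4-/- groups. Of the 12 pan-neuronal genes 7 fell in each genotype, with medians of -0.21 and -0.28. Their summed level ran from 8777 to 9153 and from 7718 to 7845 CPM in the WT groups and from 8510 to 8978 and 6962 to 8024 CPM in the Lama4-/- groups. Of the 12 cortical excitatory markers, 4 fell in each genotype. Of 11 interneuron markers, 1 fell in WT and 2 in Lama4-/-, and of 6 thalamic markers, 1 and 0. The thalamic median was -0.14 in WT and -0.001 in Lama4-/-. With so few genes, the calls in both lists cannot be set apart from the shares of all genes. Of the 12 astrocyte markers 5 fell and 1 rose in each genotype, the sum going from 5914 to 6593 CPM contralaterally to 4589 to 5575 CPM ipsilaterally in WT and from 6092 to 6266 CPM to 4462 to 5397 CPM in Lama4-/-.

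Markers of immune and vascular cells moved mostly the other way. The share of all genes called higher is not given here, so counts called higher cannot be weighed between genotypes. Of 10 microglial markers, 4 were higher in each genotype, and 1 was lower in WT and 2 in Lama4-/-. All 6 tested of 8 leukocyte markers were called higher in Lama4-/- and 2 in WT (6 and 4 with the pool block). Their median log2 changes were 2.15 in Lama4-/- and 0.99 in WT, and none was called in the interaction. The 8 markers summed to 13.3 to 16.5 and 25.2 to 30.3 CPM in the WT groups. In the Lama4-/- groups the sums were 14.3 to 16.7 and 33.6 to 48.8 CPM. The leukocyte markers Cd3e and Ly6c2 never passed 0.253 and 0.0686 CPM. Of 8 endothelial markers 3 were higher in WT and 4 in Lama4-/-, with 1 lower in each, and of 8 oligodendrocyte precursor markers 1 and 3 fell. The part of these shifts in the fall of the receptor genes was not tested. When the mean log2 CPM of the 12 pan-neuronal genes was taken off each library, the members' median ipsilateral minus contralateral difference became -0.08 in WT, with 22 of 33 below 0, and -0.00 in Lama4-/-, with 17 of 33 below 0. The range on that scale was -0.45 to 0.22 in WT and -0.46 to 0.50 in Lama4-/-.

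**Figure D4:**
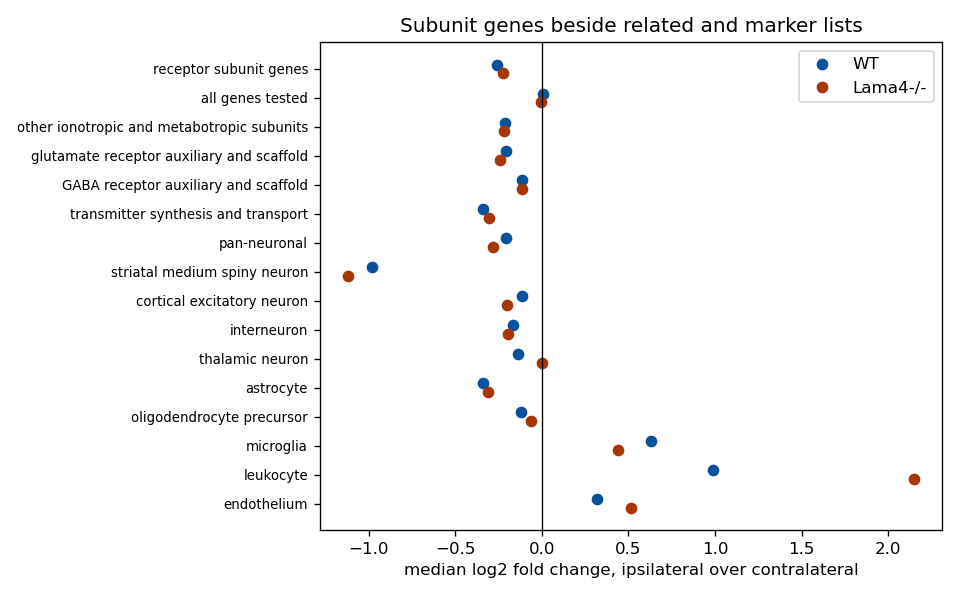
Median log2 fold change, ipsilateral over contralateral, of the 33 receptor genes, of all genes tested, of 4 related gene lists and of marker lists, in WT (blue) and Lama4-/- (brown). The receptor genes (-0.26 and -0.23) lie among the pan-neuronal (-0.21 and -0.28), cortical excitatory (-0.12 and -0.20), interneuron (-0.165 and -0.198) and astrocyte markers (-0.34 and -0.31). They lie far from the striatal medium spiny neuron markers (-0.98 and -1.12).

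The balance between pairs of receptor genes was compared as the log2 ratio of their CPM within a library, over 7 pairs and 4 group comparisons. Not all pairs are described below. The smallest p that 3 against 3 libraries allow in an exact two-sided permutation test is 0.1, so no ratio could pass at this size and the values are a description; 5 of the 28 tests reached 0.1 (smallest adjusted p 0.56). Gabrg1 relative to Gabrb2 had the most negative differences, and the ratio was lower ipsilaterally in 6 of 6 same-numbered pairs of hemispheres. Its mean log2 ratio went from -2.66 ± 0.29 to -3.14 ± 0.22 in WT (SD, n = 3) and from -2.55 ± 0.38 to -2.99 ± 0.11 in Lama4-/-, each with an exact p of 0.1. The Gabbr1 to Gabbr2 log2 ratio was also lower in 6 of 6 pairs, going from 1.56 ± 0.04 to 1.36 ± 0.08 in WT (exact permutation p = 0.1) and from 1.65 ± 0.12 to 1.42 ± 0.10 in Lama4-/- (exact permutation p = 0.2). The Grin2a to Grin2b log2 ratio, which rises as NMDA receptors mature, went from -0.58 ± 0.16 to -0.20 ± 0.27 in WT (exact permutation p = 0.2) and from -0.59 ± 0.14 to -0.37 ± 0.08 in Lama4-/- (exact permutation p = 0.1). The Gria1 to Gria2 log2 ratio was -0.62 ± 0.04 and -0.56 ± 0.19 in WT and -0.56 ± 0.08 and -0.49 ± 0.23 in Lama4-/-. These ratios carry no information on absolute abundance between genes, because the counts are not scaled for transcript length.

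The stroke response of the receptor genes was then compared between genotypes. No member and no other gene had an adjusted p below 0.05 in edgeR's interaction test. DESeq2 and limma voom called no member either. Grik5 was the single member with an unadjusted p below 0.05, where 1.59% of all genes had one. The interaction estimates ran from -0.24 (Grik5) to 0.50 ± 0.33 (Gabrg3), with a median of 0.01. With SEs of 0.08 to 0.46, differences of the size of the stroke changes themselves were not detectable for the noisier genes.

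Between genotypes within a hemisphere, no receptor gene passed either. In the contralateral hemisphere the log2 fold changes (Lama4-/- over WT) ran from -0.45 to 0.21 with a median of -0.09, beside 0.01 over all 14958 genes tested, of which 0.0134% were called. Grik5 and Grin3a had an unadjusted p below 0.05 (2 of 33, beside 9.51% of all genes), with 0.19 ± 0.06 and -0.24 ± 0.10 and an edgeR adjusted p of 0.51 each. The libraries of both genes did not overlap between genotypes, Grik5 lying higher in Lama4-/- (1 of 33, beside 8.53% of all genes) and Grin3a lower (1 of 33, beside 7.38%). Grin3a read 28.6, 27.0 and 25.7 CPM in WT and 24.3, 20.6 and 24.7 CPM in Lama4-/-. In the ipsilateral hemisphere the changes ran from -0.24 to 0.08 with a median of -0.04, no member had an unadjusted p below 0.05 (3.49% of all genes did), and 0.00658% of all 15208 genes were called. DESeq2 and limma voom called no member in either hemisphere. In the authors' deposited table of genotype comparisons, no member had an adjusted p below 0.05 in either hemisphere, and the smallest, 0.158, belonged to Grik5 contralaterally, with a log2 fold change of 0.20. Leaving out Lama4-/- ipsilateral library 1 turned the ipsilateral median from -0.04 to 0.07.

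Transcript length ran with the contralateral genotype values. Across the 33 genes the Spearman correlation between log2 fold change and the length of the longest coding transcript was -0.57, and across 14656 genes it was -0.50. These correlations are descriptions across genes that share the same libraries. Part of them went with Lama4-/- contralateral library 2. Its difference from the other 2 libraries of its group correlated with length at -0.62 over the members and -0.60 over 13615 genes. Other libraries differed along length too, at 0.46 over the members for Lama4-/- contralateral library 1, 0.40 and -0.43 for WT contralateral libraries 1 and 2, and 0.56 for WT ipsilateral library 1. Without Lama4-/- contralateral library 2 the contralateral correlations were -0.30 and -0.31, and the members' median went from -0.09 to 0.01. Of the 6 members longer than 9000 bases, library 2 was the lowest Lama4-/- contralateral library for 5 (Grin2b, Grin2a, Gabrb1, Gria2 and Gabrg3) and not for Grik2. Being lowest was not particular to these long members. Library 2 was also the lowest for many shorter ones, among them Gria1, Gria3, Grin3a, Gabra3, Gabrb2 and Gabbr1. For others, such as Grin1 and Gabrd, it was the highest. Grin2a read 19.3, 10.1 and 21.1 CPM in the Lama4-/- contralateral libraries, Grin2b 26.7, 14.8 and 35.3 CPM and Gabrg3 4.995, 2.92 and 4.56 CPM, while Grik2 read 63.7, 67.5 and 70.8 CPM. The correlation with length over the members also went from 0.48 to 0.27 for the Lama4-/- stroke comparison and from 0.52 to 0.07 for the interaction without that library. For WT stroke it was 0.13. The part of transcript length in these differences was not tested.

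**Figure D5:**
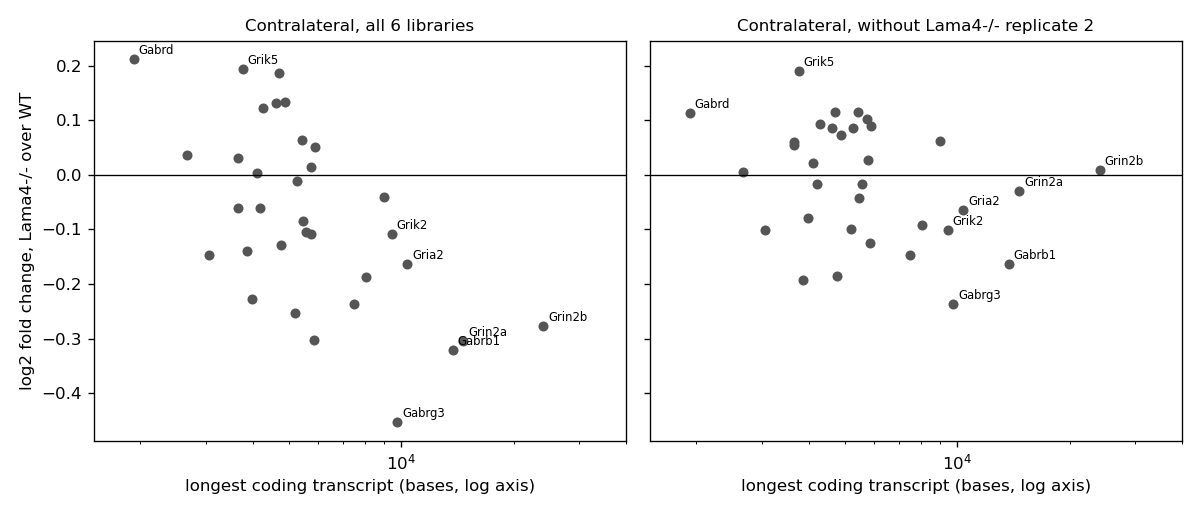
Log2 fold change between genotypes in the contralateral hemisphere against the length of the longest coding transcript (log axis) for the 33 genes, with all 6 libraries (left) and without Lama4-/- library 2 (right). The Spearman correlation is -0.57 on the left and -0.30 on the right.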

How the data were processed

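Bulk RNA-seq of 12 mouse brain hemisphere libraries was analysed from the count table deposited by the authors, which holds raw read counts per gene and library. Build mm10 and the tools STAR 2.6.0, featureCounts 1.6.4, DESeq2, FastQC 0.72 and bcl2fastq are named, with no role or order, in the submitters' processing notes. The annotation used for counting and its strand setting: not given in the sources used here. The labels' protocols name a single-cell 3' kit although the tables hold bulk libraries, so levels were not compared between genes. The authors also deposited log2 fold changes and p-values of their genotype comparisons, which are quoted only where named. A further 48 per-sample columns in other sheets were not used.

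Counts were tested in edgeR 4.0.16 (R 4.3.3; TMM, filterByExpr, robust quasi-likelihood fit), with Benjamini-Hochberg adjustment over all genes. Stroke comparisons and the interaction used all 12 libraries, and genotype comparisons the 6 of a hemisphere. The edgeR fit without a block was tested on simulated data for the WT stroke comparison only, without differences between pools. The other comparisons and alternatives were not tested in this way. CPM are TMM-scaled. Alternatives were DESeq2 1.42.0, limma 3.58.1 voom, RLE scaling, other filters, a pool block and libraries left out. After the data were seen, library totals as scaling and leaving out whole pools were added.

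The labels do not say whether same-numbered hemispheres of 1 genotype come from 1 pool of mice. They were read as such: their deviations from group means correlated at 0.37, 0.44 and 0.31 (WT) and 0.21, 0.15 and 0.48 (Lama4-/-). Same-numbered libraries of different genotypes, which hold different mice, reached similar values (up to 0.44), so a shared pool and another factor shared by number cannot be told apart. No pair of replicates matched within sampling noise. All 33 members are described; of the 4 related lists, at most the 3 called genes with the largest change per comparison and a mean CPM of at least 1 are named, except some that are not reported here. Members and lists were chosen with earlier results of these data known, so their counts are descriptions.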

Additional observations from a re-analysis of the deposited data

How the results depend on the processing

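The direction of the members' median held in both stroke comparisons under every alternative run, from -0.31 to -0.19 in WT and from -0.32 to -0.12 in Lama4-/-. The number of members called was less steady. In WT (8 called) it was 13 with the replicate block by pool, 14 with the 6 WT libraries alone, 5 with library totals as scaling, and 4, 3 and 1 without both libraries of pool 1, 2 and 3; leaving out 1 library gave 5 to 6. In Lama4-/- (9 called) it was 16 with the replicate block, 5 with the 6 Lama4-/- libraries alone, 5 with library totals, and 7, 6 and 6 without both libraries of pool 1, 2 and 3; leaving out 1 library gave 5 to 13. DESeq2 called 11 and 10, and limma voom 8 and 9. RLE scaling and both other filters changed the counts by less than 1.5 times. The share of all genes called is given above for the main fit and the block only. Under the other settings, a shift of the members and a shift of all genes cannot be told apart by these counts. The causes were not tested. Where pools were left out, the smaller number of libraries and the absence of that pool cannot be told apart. In the interaction and genotype comparisons 0 members were called under each alternative run. A replicate block by number between WT and Lama4-/- libraries, which hold different mice, also called 0 members. Same-numbered libraries correlated at 0.21, 0.37 and 0.22 contralaterally and at -0.16, 0.44 and 0.23 ipsilaterally. Gabrg3, with 102 counts in its lowest library, marks the end where depth limits precision most.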
